A study of Mus musculus with 32 samples.

Results

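The genes described here are 10 genes of transsulfuration and glutathione metabolism (Cbs, Cth, Slc7a11, Gclc, Gclm, Gss, Gsr, Gpx1, Gpx4 and Chac1). They were chosen by name for their known roles, with earlier results of these data known, among the 55401 gene identifiers counted in the study. Each of the 10 matched 1 identifier in the GRCm38 annotation. Expression was measured by sequencing from the 3′ ends of polyadenylated RNA in 32 libraries of mice aged 200 days. COX10 KO mice carried floxed Cox10, a gene whose product is needed to assemble cytochrome c oxidase, and a Cre recombinase knocked into the Myl1 locus, a myosin light chain gene of skeletal muscle, so that the deletion was aimed at muscle fibres and not at liver or hypothalamus. CTL mice were their controls, and both were on the C57BL/6 background. Muscle (gastrocnemius and soleus together) and liver had 6 CTL and 6 COX10 KO libraries each, with 3 mice labelled female and 3 labelled male per genotype, and hypothalamus had 4 CTL and 4 COX10 KO libraries from males. The comparison of genotypes asks how these genes responded in the muscle that was targeted and in 2 tissues that were not.

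The pathway supplies cysteine and turns it into glutathione. Homocysteine from the methionine cycle is joined to serine by CBS, and the product is split by CTH to release cysteine, while SLC7A11 brings in cystine in exchange for glutamate. The ligase of GCLC (catalytic subunit) and GCLM (modifier subunit) joins glutamate to cysteine, and GSS adds glycine to complete glutathione. GSR returns oxidized glutathione to its reduced form with NADPH, GPX1 and GPX4 use glutathione to remove peroxides, GPX4 those of membrane lipids, and CHAC1 degrades glutathione. Cth, Slc7a11 and Chac1 are known targets of ATF4, the transcription factor of the integrated stress response, and Gclc, Gclm, Gsr and Slc7a11 of NRF2, the factor of the antioxidant response. In liver the pathway is known for its high activity.

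In GRCm38 coordinates, Cth lies on chr3:157894248-157925077, Cbs on chr17:31608894-31637238, Slc7a11 on chr3:49892526-50443614 and Gss on chr2:155563181-155592810, all on the minus strand. On the plus strand lie Gclc at chr9:77754535-77794485, Gclm at chr3:122245557-122270732, Gsr at chr8:33652523-33698163, Chac1 at chr2:119351229-119354381, Gpx1 at chr9:108338903-108340343 and Gpx4 at chr10:80047166-80056439. All are protein-coding. The 3′ end of Gss overlaps Acss2 on the opposite strand and that of Gclm overlaps Gm17494, and since the strand setting of the counting is not given in the sources used here, reads of these pairs may not be told apart. Gpx4 stands apart by its copies. Of the 50-base words in the last 500 bases of its transcripts, 57.9% also occur in the pseudogenes Gpx4-ps2 or AC122253.3, against 0% to 10.3% shared with other genes for the remaining 9 genes, so that its count is uncertain.

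Promoter sequences show which of these genes carry the core letters of the elements that ATF4 and NRF2 are known to bind. RefSeq windows of 300 bases on GRCm38.p6, 250 before and 50 from the transcription start, were matched for 7 of the 10 genes, all but Cth, Gclc and Gsr. The ATF4 core TGATGNAA and the NRF2 core TGACNNNGC were searched on both strands. Slc7a11, Chac1 and Gclm held a match. They are printed 5′ to 3′ on the strand of the gene, and the capitals mark the matches, which do not overlap. Slc7a11 (chr3:50443564-50443863, minus strand) and Gclm (chr3:122245307-122245606, plus strand) are shown because both were called in muscle, and Chac1 (chr2:119350992-119351291, plus strand) because it held the same ATF4 core and was not.
Slc7a11: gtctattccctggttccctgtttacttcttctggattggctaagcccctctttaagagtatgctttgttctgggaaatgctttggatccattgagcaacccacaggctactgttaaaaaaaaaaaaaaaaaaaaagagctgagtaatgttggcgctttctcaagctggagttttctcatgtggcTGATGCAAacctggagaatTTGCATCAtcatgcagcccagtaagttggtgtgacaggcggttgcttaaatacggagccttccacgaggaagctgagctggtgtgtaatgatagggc
Chac1: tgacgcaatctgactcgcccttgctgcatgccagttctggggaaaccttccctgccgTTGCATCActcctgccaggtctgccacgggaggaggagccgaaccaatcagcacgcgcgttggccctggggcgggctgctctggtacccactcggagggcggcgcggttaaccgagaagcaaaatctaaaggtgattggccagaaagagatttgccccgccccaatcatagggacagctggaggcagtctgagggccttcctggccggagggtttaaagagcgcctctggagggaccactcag
Gclm: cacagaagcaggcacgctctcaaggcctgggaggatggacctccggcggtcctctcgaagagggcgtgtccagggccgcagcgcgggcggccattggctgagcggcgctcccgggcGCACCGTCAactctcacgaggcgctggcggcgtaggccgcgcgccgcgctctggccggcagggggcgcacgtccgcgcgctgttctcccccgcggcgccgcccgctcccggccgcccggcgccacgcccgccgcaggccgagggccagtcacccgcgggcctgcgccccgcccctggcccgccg
Slc7a11 held 2 matches to the ATF4 core, beginning 66 bases before the start on the strand of the gene and 47 bases before it on the other strand. Chac1 held 1, 193 bases before its start on the other strand. Gclm held 1 match to the NRF2 core, 134 bases before its start on the other strand. Of all 32851 windows in the table, 3.97% hold the ATF4 core and 12.4% the NRF2 core. The windows of Cbs, Gss, Gpx1 and Gpx4 held neither set of letters, and a match is only a description of the sequence.

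Libraries held 434494 to 11404800 counts in muscle, 674311 to 16044634 in liver and 3526613 to 22321322 in hypothalamus, and 2 of the 32, both CTL liver (numbers 1 and 4), did not match their labelled sex by sex-linked transcripts. Markers of each tissue were high in it. Muscle fibre markers summed to 55990 to 173400 CPM (counts scaled to a common library size) in muscle, hepatocyte markers to 85660 to 213800 CPM in liver and neuron markers to 3710 to 5844 CPM in hypothalamus. CTL muscle 2, the shallowest library, also held 2528 CPM of hepatocyte markers against 21.9 to 355 CPM in the other muscle libraries, and COX10 KO liver 6 held 669 CPM of muscle fibre markers against 1.28 to 142 CPM in the other liver libraries. Myl1, whose locus carries the Cre, was at 11530 ± 3277 CPM in CTL muscle and 5460 ± 1507 CPM in COX10 KO muscle (SD, n = 6 each), a difference called by edgeR (adjusted p = 0.00836). Cox10 itself was at 110 ± 42.3 and 113 ± 16.2 CPM, and because a 3′ count need not fall in the deleted part of the gene, it checks nothing. In bulk tissue, fewer cells of a type and less RNA per cell cannot be told apart.

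In CTL mice the transcripts of cysteine and glutathione synthesis stood highest in liver, and the cystine carrier Slc7a11 stood lowest there. These levels are CPM scaled over all 32 libraries, and the differences are log2 fold changes from 1 fit of all libraries with edgeR's quasi-likelihood test (adjusted p over 15154 genes). Between CTL muscle and CTL liver 9 of the 10 genes were called, where 55.6% of all genes were. Cth ranged from 83.4 to 873 CPM (median 495) in liver, from 1.27 to 7.40 CPM (median 4.24) in muscle and from 1.05 to 3.25 CPM (median 1.81) in hypothalamus, so that liver did not overlap with either. Its level was lower in muscle than in liver by a log2 fold change of -6.98 (SE 0.58, adjusted p = 3.13e-12 by edgeR). Muscle and hypothalamus did not differ beyond their spread for Cth (log2 fold change -0.86, SE 0.61, adjusted p = 0.216 by edgeR). Cbs, the first enzyme of transsulfuration, was highest in liver as well, and here hypothalamus exceeded muscle, at a median of 739 CPM in liver, 20.1 CPM in hypothalamus and 0.716 CPM in muscle. The log2 fold change of muscle against liver was -10.05 (SE 0.71) and that of hypothalamus against muscle 4.77 (SE 0.69), both called. In CTL muscle Cbs rested on 11 counts in all, with no count in 2 of 6 libraries.

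The synthesis enzymes shared an order of liver, then hypothalamus, then muscle. Gclc had medians of 147, 26.6 and 10.3 CPM, Gclm 127, 24.0 and 12.7 CPM, and Gss 34.4, 9.31 and 3.47 CPM in CTL liver, hypothalamus and muscle. All 9 of these pairwise differences were called by edgeR, the smallest being that of Gclm between hypothalamus and muscle (log2 fold change 0.83, SE 0.33, adjusted p = 0.0281), which was lost without CTL hypothalamus 4 (adjusted p = 0.0515). Gsr, the reductase, stood at a median of 33.9 CPM in liver, above muscle (11.9 CPM) and hypothalamus (9.53 CPM), which did not differ beyond their spread (adjusted p = 0.388 by edgeR). Gpx1 followed the same pattern at medians of 3028, 113 and 84.2 CPM in liver, muscle and hypothalamus, with log2 fold changes of -4.83 (SE 0.31) for muscle and -5.38 (SE 0.38) for hypothalamus against liver. Its muscle and hypothalamus did not differ beyond their spread (adjusted p = 0.11 by edgeR). Gpx4 was called in none of the 3 contrasts, with medians of 8.91, 12.6 and 7.90 CPM in the same order. The pseudogene copies leave these levels of Gpx4 uncertain.

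Slc7a11 and Chac1 ran the other way. Slc7a11 had 5 counts in all 6 CTL liver libraries together (0 to 0.605 CPM), 4.58 to 15.0 CPM (median 6.30) in CTL muscle and 23.3 to 36.3 CPM (median 26.4) in CTL hypothalamus, with no overlap between any pair of tissues. The steps were a log2 fold change of 5.12 (SE 0.45) from liver to muscle and of 1.84 (SE 0.28) from muscle to hypothalamus, both called. Chac1, the glutathione-degrading enzyme, was highest in muscle, at 27.0 to 116.5 CPM (median 47.4), against 0 to 6.66 CPM (median 1.01) in liver and 3.09 to 5.03 CPM (median 3.84) in hypothalamus. Muscle exceeded liver by 4.82 (SE 0.57) on the log2 scale and hypothalamus lay below muscle by a log2 fold change of -3.91 (SE 0.59), both called. Liver and hypothalamus were not called apart for Chac1 (log2 fold change 0.91, SE 0.60, adjusted p = 0.181 by edgeR), but were without the mismatched CTL liver 1 and 4 (2.78, adjusted p = 0.00319). In all, 8 of the 10 genes were called between hypothalamus and liver, where 69.4% of all genes were, and 6 between hypothalamus and muscle, where 63.9% were.

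**Figure D1:**
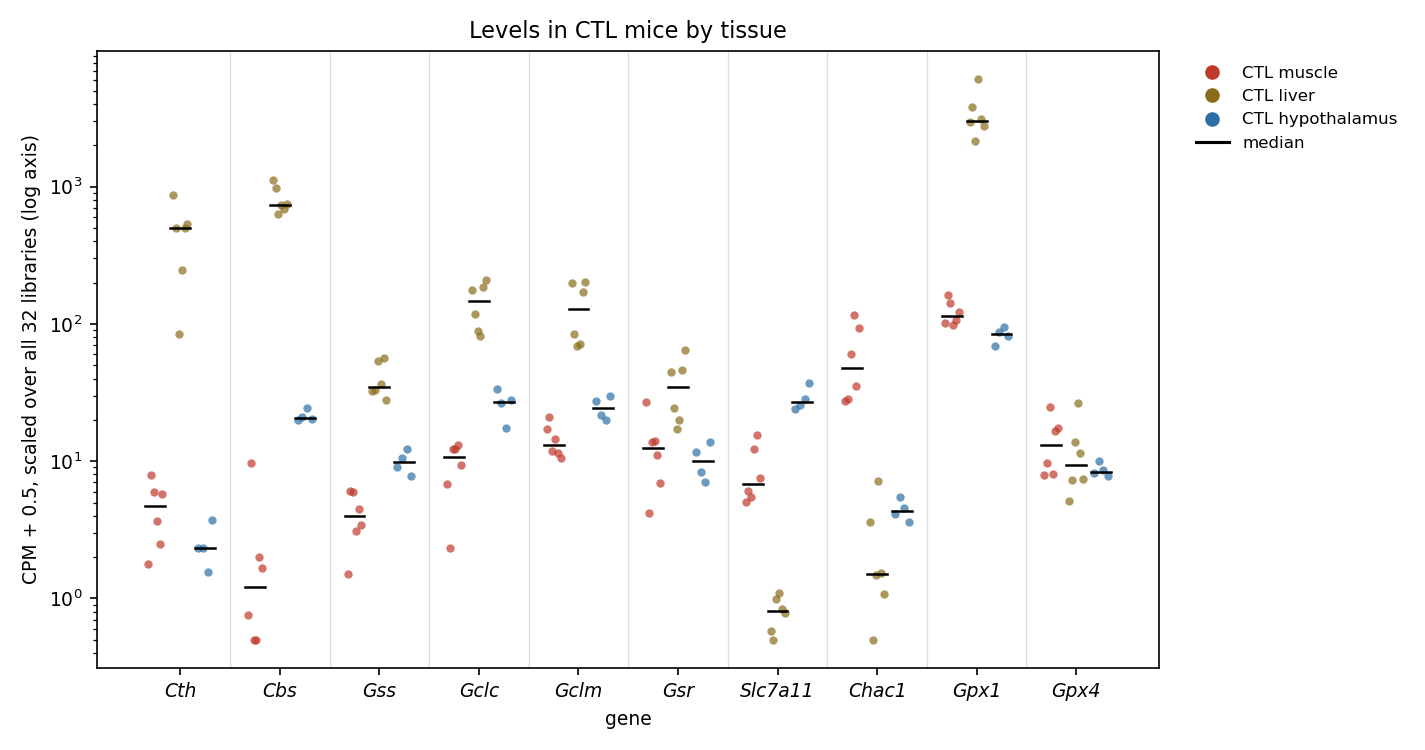
Levels of the 10 genes in CTL mice, as CPM scaled over all 32 libraries plus 0.5 on a log axis, with 1 point per library and a line at the median of each tissue (muscle and liver n = 6, hypothalamus n = 4). Cth, Cbs and Gpx1 stand highest in liver, whereas Slc7a11 has a liver median of 0.314 CPM against 6.30 in muscle and 26.4 in hypothalamus.

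In COX10 KO muscle, Cth, Slc7a11 and Gclm rose, the genes of cysteine release, cystine import and the modifier of the first synthesis step. No gene of the 10 was called lower. By edgeR's quasi-likelihood test with sex as a covariate, 3 of the 10 were called higher at an adjusted p under 0.05 over 11636 genes, where 6.90% of all genes were called higher and 7.43% lower. The median log2 fold change of the 10 was 0.76, against -0.03 over all genes tested. Because the 10 were chosen with earlier results of these data known, these comparisons with all genes are only a description. None of the 10 had its COX10 KO libraries wholly apart from its CTL libraries, which held for 6.39% of all genes. Levels from here on are CPM scaled within the tissue.

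Cth ranged from 1.12 to 7.38 CPM (median 3.78) in CTL muscle and from 6.67 to 17.4 CPM (median 11.6) in COX10 KO muscle. Of the 6 COX10 KO mice, 5 lay above every CTL mouse, and the overlap came from COX10 KO 4 and CTL 2. The means were 3.81 ± 2.36 and 11.8 ± 3.83 CPM (SD, n = 6 each), a fitted 3.61-fold rise (log2 fold change 1.85, SE 0.38, adjusted p = 0.00507). By two-sided exact permutation of the CPM values p was 0.00433, where the smallest possible is 0.00216. The CTL values rested on few counts, 4 to 22 per library and 55 in all. The highest CTL value was that of CTL muscle 2, the library with hepatocyte markers, and was 4 counts. With that library left out the fitted value was 2.03 (SE 0.38, adjusted p = 0.0029 by edgeR). The part of liver RNA in that library's Cth count was not tested. Fitted in females or males alone, the value was 2.01 or 1.77 and was not called (adjusted p = 0.0868 and 0.0811 by edgeR).

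Cbs, which acts just before CTH, gave too few counts in muscle for a firm statement: 11 over the CTL and 70 over the COX10 KO libraries. These raw counts do not compare the genotypes, because the CTL libraries held 21414457 counts in all and the COX10 KO libraries 40039035. Cbs ranged from 0 to 9.23 CPM (median 0.658) in CTL and from 0.318 to 3.58 CPM (median 1.73) in COX10 KO muscle. The 9.23 CPM were 5 counts in CTL muscle 2. The fitted log2 fold change was 0.94 (SE 1.04, adjusted p = 0.589). Without CTL muscle 2 it was 2.33 (SE 0.87, adjusted p = 0.0805 by edgeR), still not called.

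Slc7a11 ranged from 4.04 to 13.7 CPM (median 6.04) in CTL and from 12.6 to 25.6 CPM (median 19.9) in COX10 KO muscle. Here too 5 of 6 COX10 KO mice lay above every CTL mouse, the exception being COX10 KO 2 against CTL 5. The means were 7.34 ± 3.70 and 19.6 ± 4.14 CPM (SD, n = 6 each), a fitted 2.79-fold rise (log2 fold change 1.48, SE 0.26, adjusted p = 0.00163), and the exact permutation p was 0.00433. In females alone the log2 fold change was 1.97 (SE 0.37, adjusted p = 0.0184 by edgeR) and was called. In males alone it was 1.15 (adjusted p = 0.104 by edgeR) and was not called. The male CTL values of 6.55 to 13.7 CPM lay above the 4.04 to 5.54 CPM of CTL females. Slc3a2, the partner chain that carries SLC7A11 to the membrane, rose in the same mice from 82.6 ± 41.4 to 296 ± 54.8 CPM (log2 fold change 1.92, SE 0.25, adjusted p = 0.000177 by edgeR), with all 6 COX10 KO values above all CTL values.

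Of the ligase that starts glutathione synthesis, the modifier subunit rose and the catalytic subunit gave no call. Gclm ranged from 9.28 to 20.3 CPM (median 11.0) in CTL and from 15.7 to 35.3 CPM (median 20.2) in COX10 KO muscle, with 3 of 6 COX10 KO mice above every CTL mouse. The means were 12.7 ± 4.16 and 22.1 ± 6.89 CPM (SD, n = 6 each), a fitted 1.83-fold rise (log2 fold change 0.87, SE 0.25, adjusted p = 0.0292). The highest CTL value, 20.3 CPM, was 11 counts in CTL muscle 2, the library with hepatocyte markers. Without that library the log2 fold change was 1.005 (SE 0.24, adjusted p = 0.0128 by edgeR). The call with all libraries was the least firm of the 3: it was lost without CTL muscle 3, 5 or 6 (adjusted p = 0.0636, 0.0688 and 0.0777 by edgeR). CTL muscle 3 also held 11300 CPM of erythroid markers against 1053 to 2590 CPM in the other muscle libraries, whose part was not tested. Fitted in females or males alone, Gclm had a log2 fold change of 0.54 or 1.22 and was not called (adjusted p = 0.41 and 0.106 by edgeR). The part of Gm17494, whose locus overlaps the 3′ end of Gclm on the opposite strand, in the Gclm count was not tested. Gclc ranged from 1.85 to 11.4 CPM (median 8.97) in CTL and from 2.91 to 11.5 CPM (median 9.79) in COX10 KO muscle, groups that lay on top of each other. Its log2 fold change was -0.04 (SE 0.37, adjusted p = 0.964), with a 95% interval of -0.75 to 0.68. Gss, which adds glycine, ranged from 0.898 to 5.54 CPM (median 3.19) in CTL and from 3.77 to 9.20 CPM (median 6.31) in COX10 KO muscle, with 4 of 6 COX10 KO mice above every CTL mouse. The log2 fold change of 1.03 (SE 0.40) did not pass the adjusted threshold (adjusted p = 0.0969). Acss2, whose locus overlaps its 3′ end, had a log2 fold change of 0.63 (SE 0.28, adjusted p = 0.147), and its part in the Gss count was not tested.

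The genes that recycle and use glutathione were not called in muscle. Gsr ranged from 3.69 to 23.4 CPM (median 10.4) in CTL and from 8.90 to 22.9 CPM (median 20.7) in COX10 KO muscle, with a log2 fold change of 0.64 (SE 0.31, adjusted p = 0.179). Gpx1 ranged from 81.6 to 162 CPM (median 104) in CTL and from 110 to 171 CPM (median 123) in COX10 KO muscle, and its log2 fold change of 0.23 had a 95% interval of -0.16 to 0.62 (adjusted p = 0.468). Both groups overlapped widely for these genes. Gpx4 was the gene with the lowest fitted value: it ranged from 6.26 to 22.1 CPM (median 11.9) in CTL and from 4.28 to 9.70 CPM (median 6.71) in COX10 KO muscle. The fitted log2 fold change was -0.92 (SE 0.33, adjusted p = 0.0731), and it became called without CTL muscle 1 (-1.12, adjusted p = 0.0261) or CTL muscle 4 (-1.05, adjusted p = 0.0364 by edgeR). Both of these hold the lowest CTL values of Gpx4, and the pseudogene copies leave the count uncertain.

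Chac1, which degrades glutathione, ranged from 23.8 to 96.6 CPM (median 43.3) in CTL and from 14.2 to 77.1 CPM (median 64.0) in COX10 KO muscle. The groups overlapped over most of their range, and the means of 53.5 ± 31.5 and 56.0 ± 25.5 CPM (SD, n = 6 each) gave a log2 fold change of 0.08 (SE 0.42, adjusted p = 0.93). The 95% interval ran from -0.75 to 0.91. No gene of the 10 had a KO effect that was called different between the sexes in muscle (0 of 10 by edgeR, where 0% of all genes were called, and 0 by DESeq2). At an unadjusted p under 0.05 by edgeR there was 1, Chac1, beside 459 of all 12065 genes. Its log2 fold change in males minus that in females was -1.67 (SE 0.73, unadjusted p = 0.0352, adjusted p = 1 by edgeR).

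**Figure D2:**
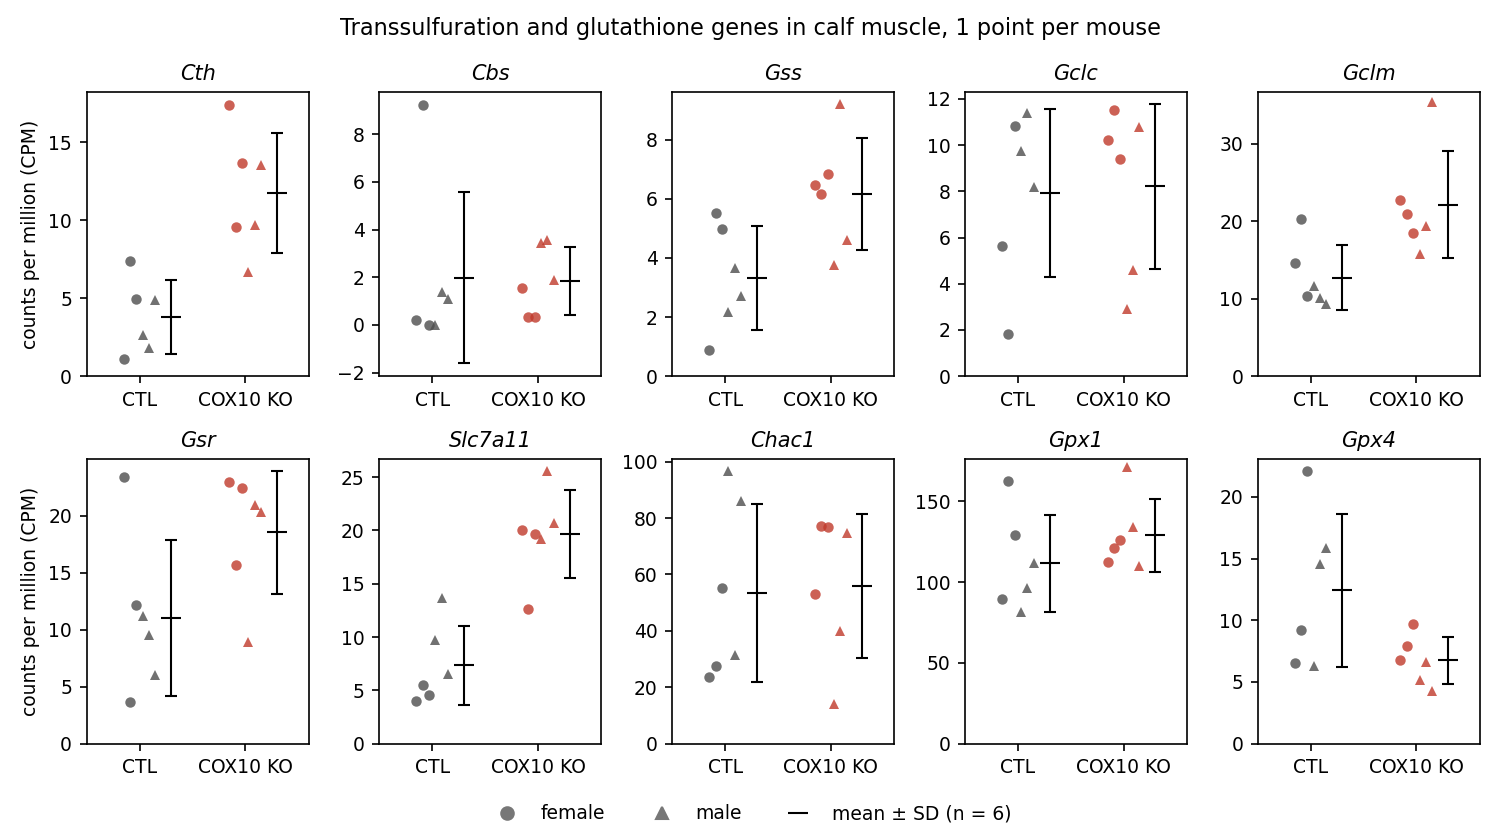
CPM (scaled within muscle) of each gene in each of the 6 CTL (grey) and 6 COX10 KO (red) muscle libraries, circles for females and triangles for males, with the mean ± SD beside the points. Cth and Slc7a11 each have 5 of 6 COX10 KO points above every CTL point, whereas Gclc and Chac1 overlap over most of their range.

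In liver, where the Cre is not expressed by design, none of the genes was called. By edgeR 0 of the 8 genes that passed the filter on low counts were called, where 0.0927% of all 9707 genes were, and none had an unadjusted p under 0.05. DESeq2 called none either. Cth ranged from 71.8 to 732 CPM (median 421) in CTL and from 40.9 to 552 CPM (median 345) in COX10 KO liver, where its log2 fold change was -0.17 (SE 0.54) and without CTL liver 1 and 4 it was 0.06 (SE 0.57). Cbs ranged from 548 to 931 CPM (median 626) in CTL and from 388 to 1697 CPM (median 613) in COX10 KO liver. The highest value, in COX10 KO liver 3, stood apart from the other 5, which lay between 388 and 707 CPM, and the same library had the lowest Cth (40.9 CPM) and Gsr (1.64 CPM) and the lowest depth in liver. With it the log2 fold change of Cbs was 0.09 (SE 0.34) and without it -0.28 (SE 0.24).

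Gss had the largest fitted value in liver, with 23.4 to 47.9 CPM (median 29.0) in CTL and 29.8 to 58.9 CPM (median 41.2) in COX10 KO mice and a log2 fold change of 0.33 (SE 0.27, adjusted p = 0.997). The ligase subunits lay close to 0: Gclc had a log2 fold change of -0.10 (SE 0.34) and Gclm of -0.10 (SE 0.37). For Gsr, Gpx1 and Gpx4 the values were 0.01 (SE 0.45), -0.18 (SE 0.30) and 0.25 (SE 0.56). Without CTL liver 1 and 4 the 8 values lay between -0.09 and 0.42, again with no call. The 95% intervals show how little this bounds: that of Cth ran from -1.24 to 0.89 and that of Gpx1 from -0.76 to 0.41. Depth differed between the genotypes, with 30426111 counts in all in CTL liver and 12148714 in COX10 KO liver. Slc7a11, with 5 counts over the CTL and 5 over the COX10 KO libraries, and Chac1, with 58 (40 in CTL liver 1) and 19, did not pass the filter. Two-sided exact permutation of their CPM values gave p = 0.903 and 0.820, and with so few counts a small change was not detectable at this depth. With the sexes as labelled, the mismatched CTL liver 1 and 4 included, the sex interaction in liver was called for 0 of 8 genes by edgeR, where 0% of all genes were called, with none at an unadjusted p under 0.05 and none called by DESeq2. Without these libraries it was again called for 0 of 8, and for 1 gene over the whole table.

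In hypothalamus, also not targeted by the Cre, 0 of the 10 genes were called by edgeR, where 0% of all 13504 genes were (2 genes with the replicate number as a block), and DESeq2 called none of the 10. At an unadjusted p under 0.05 by edgeR there were 2, Cbs and Gclm, beside 211 of all 13504 genes. Cbs was at 29.1, 31.1, 36.0 and 31.2 CPM in CTL 1 to 4 and at 29.7, 50.2, 45.5 and 57.3 CPM in COX10 KO 1 to 4. COX10 KO 2, 3 and 4 lay above every CTL value and COX10 KO 1 among them, with a log2 fold change of 0.52 (SE 0.21, unadjusted p = 0.0294, adjusted p = 1 by edgeR). Gclm was at 40.4, 32.4, 29.4 and 46.0 CPM in CTL and at 32.8, 27.2, 21.8 and 25.2 CPM in COX10 KO mice, so that 3 of 4 COX10 KO values lay below every CTL value. Its log2 fold change was -0.47 (SE 0.21, unadjusted p = 0.0398, adjusted p = 1 by edgeR). With the replicate number as a block the values were 0.46 for Cbs (adjusted p = 0.453 by edgeR) and -0.47 for Gclm (adjusted p = 0.441 by edgeR). The hepatocyte list was led by Ttr, known in brain from the choroid plexus, and its sum lay at 1232 to 2822 CPM in CTL and 3156 to 5273 CPM in COX10 KO hypothalamus, while Alb had means of 0.0533 and 0.0443 CPM. Whether the makeup of the dissected tissue had a part in the values of Cbs and Gclm was not tested.

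Slc7a11, abundant in this tissue, was at 35.0, 38.2, 42.1 and 57.2 CPM in CTL and at 29.9, 35.0, 41.2 and 33.7 CPM in COX10 KO hypothalamus. The groups overlapped, and the log2 fold change of -0.30 (SE 0.20) had a 95% interval of -0.69 to 0.10. Between libraries of the same number, COX10 KO was the lower in 4 of 4 for Slc7a11 and for Gclm and the higher in 4 of 4 for Cbs. It was the lower in 3 of 4 for Gclc, and the remaining genes were split 2 and 2. Some steps were small, such as 42.1 to 41.2 CPM for Slc7a11 at number 3, which does not pair by correlation. How many of all genes lay on 1 side in 4 of 4 was not counted, so these signs are only a description. With the replicate number as a block Slc7a11 was at -0.30 (SE 0.14, adjusted p = 0.525 by edgeR), again not called. Cth stood low in both, at 1.59 to 5.11 CPM in CTL and 2.39 to 4.01 CPM in COX10 KO mice (log2 fold change 0.09, SE 0.37). The other 6 genes had log2 fold changes between -0.38 (Gsr) and 0.38 (Chac1), each with an SE of 0.20 to 0.32.

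**Figure D3:**
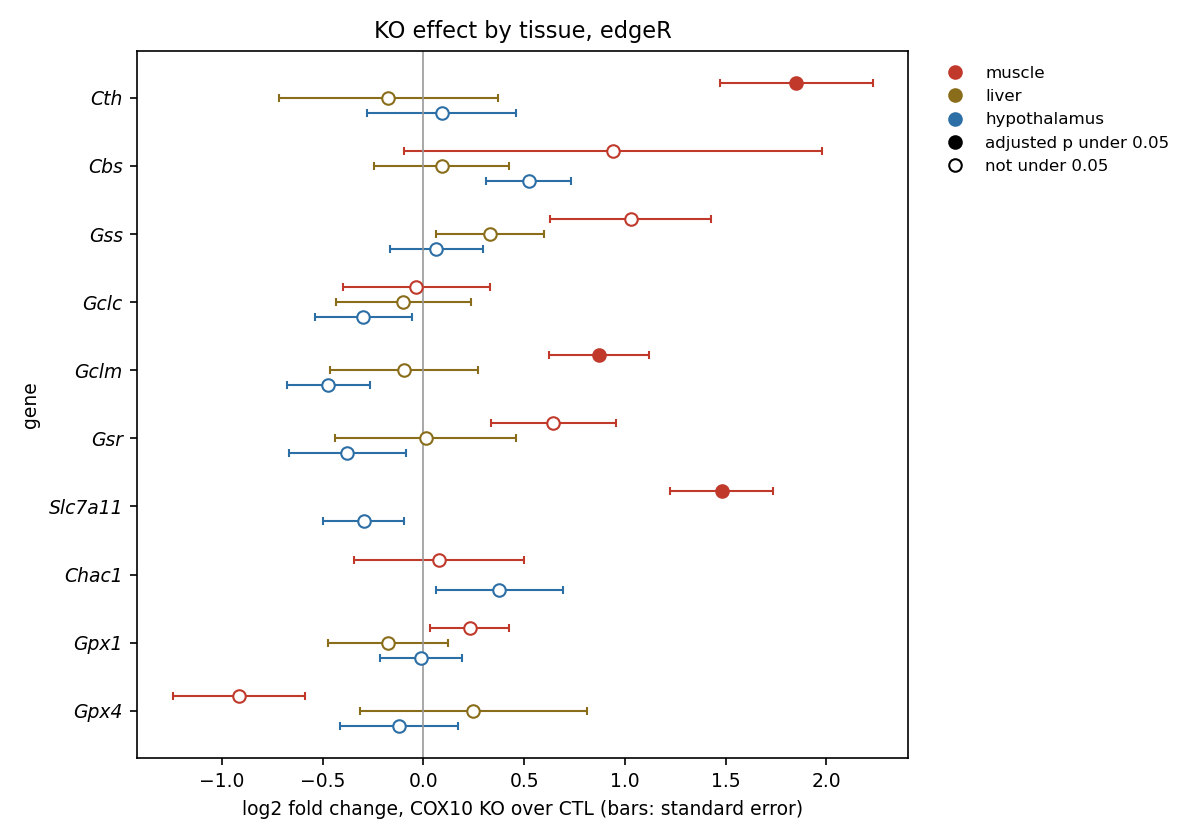
Fitted log2 fold change of COX10 KO over CTL for the 10 genes in muscle, liver and hypothalamus, with bars for the standard error and filled points where the adjusted p is under 0.05 (edgeR; Slc7a11 and Chac1 did not pass the filter in liver). The filled points are Cth, Slc7a11 and Gclm in muscle, at 1.85, 1.48 and 0.87, while every liver and hypothalamus point is open.

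A call in muscle and none elsewhere does not by itself show that the tissues differ, so the difference of the KO effects was tested in the fit of all 32 libraries. That fit takes the libraries as independent, and the labels do not state whether tissues came from the same mice. Between muscle and hypothalamus 1 of the 10 genes was called, Slc7a11, where 0.891% of all genes were called. Its log2 fold change was larger in muscle by 1.82 (SE 0.39, adjusted p = 0.0138 by edgeR). In males alone, the sex common to both tissues, this difference was 1.47 (adjusted p = 0.168 by edgeR) and was not called. Gclm and Cth differed by 1.39 (SE 0.47, adjusted p = 0.179 by edgeR) and 1.81 (SE 0.81, adjusted p = 0.373 by edgeR).

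Between muscle and liver 0 of the 10 genes were called by edgeR and by DESeq2, where edgeR called 2.83% of all genes. Of these, 249 had the larger value in muscle and 180 in liver, or 191 and 244 with relative log expression factors. At an unadjusted p under 0.05 by edgeR there were 2 of the 10 (Cth and Gclm), beside 2844 of all 15154 genes, a similar share. Cth came closest, with a difference of 2.10 (SE 0.67, adjusted p = 0.0779 by edgeR). It was called without CTL liver 3 (2.28, adjusted p = 0.0379 by edgeR), the CTL library with the lowest hepatic Cth and with 15420 CPM of erythroid markers against 1383 to 3878 CPM in the other liver libraries, and with the replicate number as a block (2.11, adjusted p = 0.0221 by edgeR). The difference of Gclm was 1.04 (SE 0.42, adjusted p = 0.168 by edgeR). For Slc7a11 the liver counts were too few, and the fitted difference of 0.89 (adjusted p = 0.806 by edgeR) bounds little. Between liver and hypothalamus 0 of the 10 genes were called by edgeR or DESeq2, where 0% of all genes were called, and none had an unadjusted p under 0.05.

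Around these 10 genes, 11 lists of neighbouring pathways held 117 genes, of which 98 were tested in muscle, and 15 were called higher and 6 lower. These are 15.3% and 6.12%, beside the 6.90% and 7.43% of all genes, for lists that were also chosen with earlier results known. DESeq2 called 24 of the 97 it tested in muscle, where it called 15.5% of all genes. In liver 92 and in hypothalamus 91 were tested, and 0 were called in either by edgeR or by DESeq2. At an unadjusted p under 0.05 by edgeR there were 7 and 1, beside 483 of all 9707 genes in liver and 211 of all 13504 in hypothalamus. The largest value, that of Trib3, was among the regulators. Atf4 rose from 253 ± 46.3 to 658 ± 121 CPM (SD, n = 6 each; log2 fold change 1.37, SE 0.19), Ddit3, the stress-induced factor CHOP, by 2.30 (SE 0.27), and Trib3, an ATF4 target that feeds back on it, by 5.15 (SE 0.38), all on the log2 scale. All 6 COX10 KO values lay above all CTL values for each of these 3, out of 9 regulators tested, none of which was called lower. Atf3, another stress-induced factor, had a log2 fold change of 1.57 (SE 0.51) and missed the threshold (adjusted p = 0.0513 by edgeR). Their list had a median log2 fold change of 0.73 against -0.03 over all genes.

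Carriers of cystine, cysteine and glutamate moved both ways, with 3 of 7 tested genes higher and 1 lower and a list median of -0.33. Beside Slc3a2, Slc7a5, a carrier of large neutral amino acids that pairs with the same chain, was higher (log2 fold change 3.82, SE 0.66), as was Slc1a4, a carrier of alanine, serine and cysteine (1.74, SE 0.56, adjusted p = 0.0491 by edgeR). Slc1a3, a glutamate carrier, was lower (-1.44, SE 0.40). Of the 4 mitochondrial carriers tested, Slc25a39, which takes glutathione into mitochondria, was called higher, from 78.0 ± 21.9 to 148 ± 29.1 CPM (SD, n = 6 each; log2 fold change 0.92, SE 0.21), and all 6 COX10 KO values lay above all CTL values.

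The thioredoxin side of the thiol system moved upward where it was called, with 4 of 16 genes higher and none lower, and a median log2 fold change of 0.23. Srxn1, sulfiredoxin, which reactivates oxidized peroxiredoxins, rose from 38.1 ± 14.9 to 176 ± 48.9 CPM (SD, n = 6 each; log2 fold change 2.20, SE 0.26). The thioredoxin reductases Txnrd1 and Txnrd3 rose by 0.81 (SE 0.21) and 1.04 (SE 0.24) on the log2 scale, and the mitochondrial thioredoxin Txn2 by 0.62 (SE 0.19). Of the enzymes that supply NADPH, Pgd of the pentose phosphate pathway was higher (log2 fold change 0.87, SE 0.23), and the malic enzymes Me1 (-0.77, SE 0.22) and Me3 (-0.91, SE 0.23) were lower, out of 7 tested.

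Among 16 glutathione S-transferases tested, 1 was called higher and 1 lower, shares close to the 6.90% and 7.43% of all genes, with a list median of -0.39. Gsto1, an omega-class transferase with reductase activity, rose from 71.7 ± 31.1 to 384 ± 51.9 CPM (SD, n = 6 each; log2 fold change 2.42, SE 0.25). Gstp1 had a log2 fold change of -1.66 (SE 0.38) and shares 37.7% of its 3′ words with its copies, so that its count is uncertain. In glutathione breakdown Lap3, a leucyl aminopeptidase that also splits cysteinylglycine, rose by 0.61 (SE 0.16) on the log2 scale and Oplah, the oxoprolinase of the same cycle, had a log2 fold change of -0.64 (SE 0.19), out of 7 tested. Trnau1ap, a factor of selenocysteine insertion, rose by 1.03 (SE 0.21) on the log2 scale, 1 of 8 in its list. Gadl1, a decarboxylase of cysteine sulfinate and aspartate, was lower (-1.51, SE 0.45), 1 of 10 in cysteine breakdown and sulfide oxidation. In the methionine cycle 0 of 11 and among the other glutathione peroxidases 0 of 3 tested genes were called by edgeR, and none by DESeq2. At an unadjusted p under 0.05 there were 1 (Mtr, methionine synthase, log2 fold change 0.39, SE 0.17) and 0, beside 3458 of all 11636 genes. The calls that rested most on the settings were those of Gadl1, Oplah, Me1, Txn2 and Slc1a4, which were called in 9 of 19, 7 of 20, 9 of 20, 9 of 20 and 5 of 18 alternatives.

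**Figure D4:**
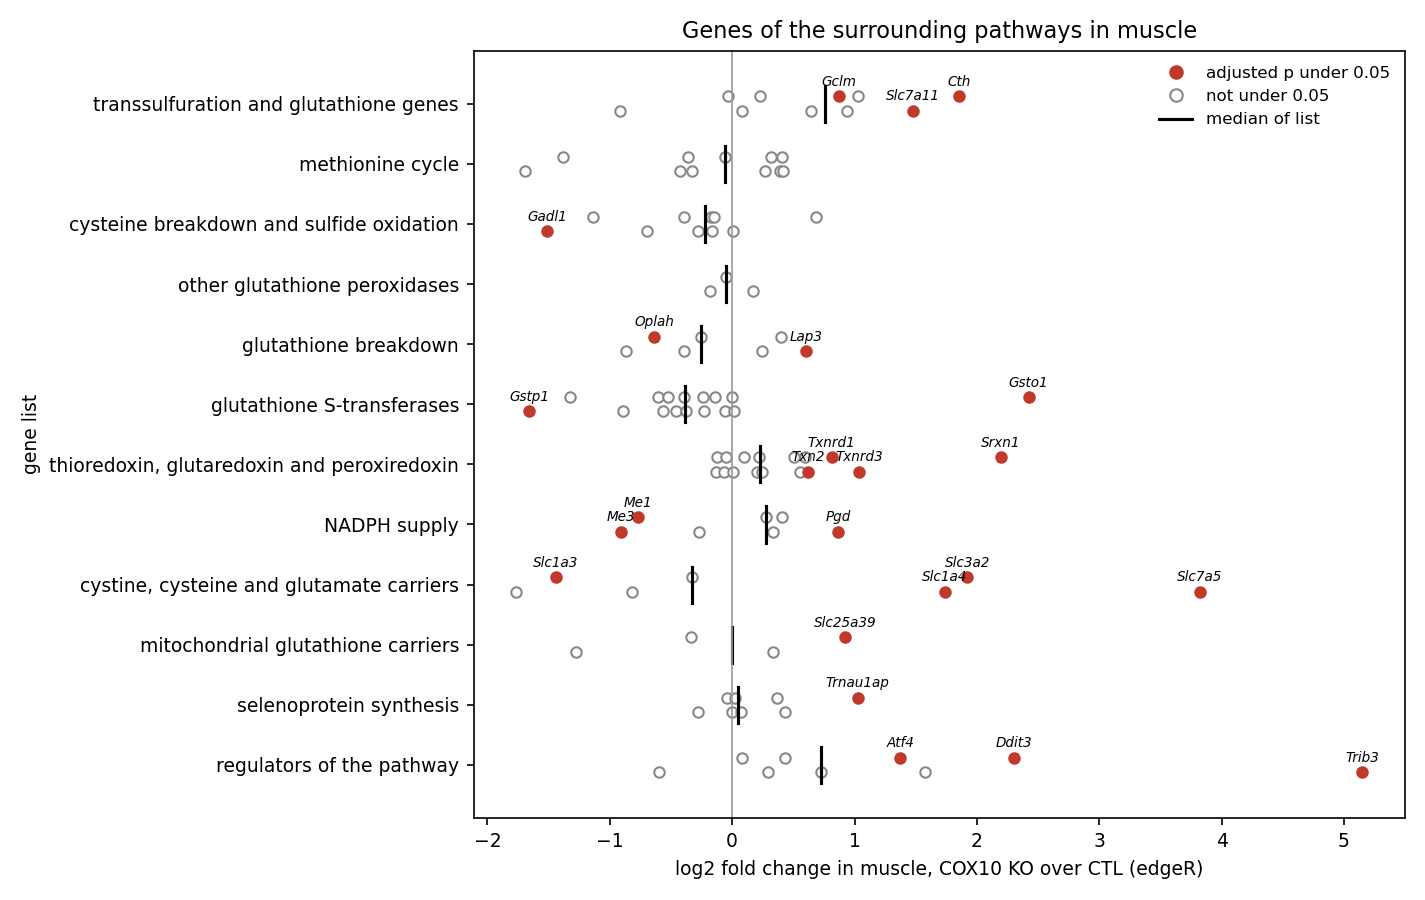
Log2 fold change in muscle (COX10 KO over CTL, edgeR) of each tested gene, by list, filled and named where the adjusted p is under 0.05, with a black line at the list's median. Trib3 (5.15), Slc7a5 (3.82), Gsto1 (2.42) and Ddit3 (2.30) lie farthest to the right, and the medians lie between -0.39 for the glutathione S-transferases and 0.76 for the 10 genes.

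Some genes of the cell type lists moved with genotype in muscle. Of 10 macrophage markers tested, 3 were called higher, among them Cd68, which rose from 3.82 ± 1.91 to 53.3 ± 11.2 CPM (SD, n = 6 each), and the summed list ran from 129 to 389 CPM in CTL and from 241 to 580 CPM in COX10 KO muscle. The macrophage surface markers Adgre1 and Csf1r had log2 fold changes of 0.36 (SE 0.42) and 0.34 (SE 0.32), not called. Of 10 muscle fibre markers 4 were called lower (Ttn, Tnnt3, Tnni2 and Myh4, with log2 fold changes of -1.06 to -0.85), with sums of 55990 to 173400 CPM in CTL and 60670 to 103500 CPM in COX10 KO muscle. Of the neuron, astrocyte and fibroblast lists 1 gene each was called lower (Syt1, Aqp4 and Col1a2). Which cells of the muscle these transcripts came from was not tested. Of the endothelial, adipocyte, erythroid and hepatocyte lists none was called by edgeR, and DESeq2 called 1 erythroid gene. These 4 lists held 1, 0, 3 and 0 genes at an unadjusted p under 0.05 by edgeR, beside 3458 of all 11636 genes. The part of these markers in the values of Cth, Slc7a11 and Gclm was not tested.

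The genes whose pattern over the 32 libraries was most like that of each called gene were found by the root mean square difference of centred log2 CPM. For Cth they were Hoga1 (0.88), Hsd11b1 (0.92) and Galm (0.95), where the median over all genes was 3.44. For Slc7a11 they included Ttc9 (0.66) and Car4 (0.75), with a median of 2.39. For Gclm they included Acbd5 (0.35) and Tram1 (0.41), with a median of 1.78. These distances are set mostly by the levels in the 3 tissues and are a description over libraries that share tissue and depth.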

How the data were processed

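Raw counts per gene were deposited for 32 libraries, with 55401 identifiers in each, of which 55141 matched a symbol. From single-end 3′ reads the authors made these counts by trimming with BBDuk, alignment with STAR 2.5.0a (build GRCm38.p6) and counting with HTSeq 0.6.1. The authors then used DESeq2 for normalised counts, which are not used here. No molecular identifiers are named in the sources used here, so counts are of reads and not of molecules. P-values of the fits weigh a difference between groups against the spread between the libraries within a group.

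Counts were fitted one tissue at a time with edgeR 4.0.16 in R 4.3.3, using TMM factors, filterByExpr and the two-sided quasi-likelihood F test. Sex was a term of the muscle and liver fits. Contrasts between tissues came from a single fit of the 32 libraries. A gene was called where its p, adjusted by Benjamini-Hochberg over all genes in the fit, was under 0.05. Standard errors were derived from the F statistic, and 95% intervals assume a normal error. CPM were taken with TMM-scaled library sizes, and the exact permutation test of single genes cannot go below p = 0.00216 for 6 against 6 libraries or 0.0286 for 4 against 4. The scripts were tested on simulated data.

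The 10 genes, the other lists and the tests were chosen with earlier results of these data known. The rule for naming genes took the 10 genes, the 4 genes of smallest p in muscle in each other list, the 3 genes most like each called gene (on log2 of CPM plus 0.5), and Cox10, Myl1 and sex-linked genes as checks of the labels. Some genes that this rule names are not reported here. Of the list genes, those called are named here, with Atf3 and Mtr. Acss2, Gm17494, the pseudogenes and single cell type markers were named after their values were seen. As alternatives, DESeq2 1.42.0 replaced edgeR, relative log expression factors replaced TMM, and the filter was dropped or raised to 10 counts per library throughout. Further fits left sex out of the model, put a block for replicate number in its place, used a single sex, or left out CTL liver 1 and 4 or any one library. As a check of pairing, libraries that share a number in both genotypes were correlated in their deviations from the group means. The correlations were 0.805, 0.204, 0.395 and 0.308 for hypothalamus 1 to 4. The highest with a library of another number were 0.002, 0.072, 0.469 and 0.27. By this measure numbers 1, 2 and 4 pair the libraries and number 3 does not, and no label states a pairing. The main values are without the block. The correlations ran from -0.171 to 0.231 in muscle and from -0.525 to 0.491 in liver. There only muscle 5 and liver 2 and 6 exceeded the correlations with other numbers, so that most of these numbers do not pair the libraries.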

Additional observations from a re-analysis of the deposited data

Results flagged for a closer look

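Of 60 groups of 4 to 6 libraries checked for the 10 genes, 4 held a library far from the others by Dixon's criterion, which chance gives in about 1 of 20 groups. Cbs was at 9.23 CPM in CTL muscle 2 against 0 to 1.37 CPM in the other 5, in the library that also held 2528 CPM of hepatocyte markers. Cbs was at 1697 CPM in COX10 KO liver 3, the shallowest liver library, against 388 to 707 CPM in the other 5. Gclm was at 35.3 CPM in COX10 KO muscle 6 against 15.7 to 22.7 CPM in the other 5. Slc7a11 was at 1.40 CPM (4 counts) in COX10 KO liver 6 against 0 to 0.507 CPM in the other 5, in the library that also held 669 CPM of muscle fibre markers. The part of RNA from another tissue in the Cbs value of CTL muscle 2 and in the Slc7a11 value of COX10 KO liver 6 was not tested.

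The KO effect on Slc7a11 differed between muscle and hypothalamus by 1.82 on the log2 scale (SE 0.39, adjusted p = 0.0138 by edgeR). Muscle held both sexes and hypothalamus only males, and in males alone the difference was 1.47 and not called (adjusted p = 0.168 by edgeR). In muscle 5 of 6 COX10 KO values lay above every CTL value, and in hypothalamus 3 of 4 lay below every CTL value, of which COX10 KO 2 did so by less than 1 CPM.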

How the results depend on the processing

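Of 1852 alternatives over 64 results of the 10 genes, 1772 left direction and call as they were, 60 turned the sign of a value (0 of a called one), 11 ended a call and 9 made one. The count of genes called in muscle moved from 3 to 1 with at least 10 counts in every library (3 genes then tested) and in females alone, and to 0 in males alone, and leaving out 1 library gave 2 to 4. The replicate block, where most numbers do not pair the muscle libraries, gave 0.82 for Gclm (adjusted p = 0.0685 by edgeR). Between muscle and liver the count moved from 0 to 1 with no filter and with the block, and ran from 0 to 1 with a library left out. Between muscle and hypothalamus it moved from 1 to 0 in males alone. In hypothalamus the block changed no call of the 10 genes.

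The following signs turned. In muscle, Gclc was 0.016 with no filter, 0.030 with no sex term and 0.57 in females, Chac1 -0.70 in males and Gpx1 -0.075 in females. In liver without CTL 1 and 4, Cth was 0.060, Gclm 0.049 and Gpx1 0.060, and in labelled males (CTL 4, which does not match, included) Cth was 0.020, Cbs -0.049, Gclc 0.052, Gclm 0.13 and Gpx4 -0.79. Cbs in liver was -0.015 with at least 10 counts in every library and -0.071 with the block. Gsr in liver was -0.0047 with no filter, -0.11 with the block and -0.19 in labelled females (CTL 1, which does not match, included), and Gpx1 was 0.018 in the latter. In labelled males the Slc7a11 difference of muscle and liver was -0.017 and Gpx4 in CTL muscle against CTL liver was -0.12. With a library left out, Gclc ran in muscle from -0.20 to 0.20 and Chac1 from -0.15 to 0.38. In liver Cth ran from -0.44 to 0.17, Cbs from -0.28 to 0.23, Gclc from -0.33 to 0.048, Gclm from -0.29 to 0.20, Gsr from -0.14 to 0.24, Gpx1 from -0.28 to 0.071 and Gpx4 from -0.16 to 0.67. In hypothalamus Cth ran from -0.097 to 0.39, Gss from -0.11 to 0.18, Gpx1 from -0.12 to 0.12 and Gpx4 from -0.31 to 0.11, and Gpx4 in CTL hypothalamus against CTL liver from -0.62 to 0.071. The cause was not tested.

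Over all genes, the 803 higher and 865 lower in muscle became 563 and 548 with at least 10 counts in every library (4784 tested), 533 and 454 with the block, 163 and 134 in females, 157 and 124 in males and 482 and 431 without CTL muscle 6, the lowest count with 1 library left out. The 2 higher and 7 lower in liver became 23 and 39 by DESeq2, 57 and 118 with no filter, 0 and 0 with at least 10 counts in every library, 0 and 1 in either labelled sex alone and 2 and 14 without CTL 1 and 4. For muscle against liver effects, DESeq2 gave 431 and 732 and labelled males alone 59 and 38, and for muscle against hypothalamus DESeq2 gave 175 and 194. Relative log expression factors moved the median over all genes of the muscle minus liver effects from 0.0014 to -0.10. Few counts limit Cbs in muscle, Cth in CTL muscle, and Slc7a11 and Chac1 in liver.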
